A study of Mus musculus with 16 samples.

Results

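The transcriptome of C17.2α cells was examined at the lowest strobilurin concentrations of the experiment, at which picoxystrobin, pyraclostrobin and trifloxystrobin were each applied at 30 nM and at 100 nM. The 6 libraries of these exposures were pooled as 1 group and set against the 2 DMSO libraries, so that 8 of the 16 libraries of the series were used. The rule took genes with an average over 10 CPM (read counts scaled to the library total), which left 9747 of the 54658 gene symbols listed, and asked for which of them the 6 exposed libraries were all above or all below the DMSO pair, and which compound made exceptions. C17.2α cells are a neural stem cell line of mouse cerebellum that was stably transfected, as 1 line, to overexpress the thyroid hormone receptor TRα1, and every library, the DMSO libraries included, comes from this line. All cultures were kept in serum depleted of thyroid hormone, none of these 8 received T3, and cells were lysed after 24 h with the compound in DMSO or with DMSO as the solvent control. The experiment asked whether strobilurins other than pyraclostrobin act on gene expression and at which concentration. Each exposed library is 1 compound at 1 concentration, so the 6 are not replicates of a condition, and any SD over them holds differences between compounds and concentrations as well. No source used here states that the libraries came from separate cultures, and p-values then measure the spread between these libraries.

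Strobilurins are agricultural fungicides that bind the quinol oxidation site of respiratory complex III, the cytochrome bc1 complex, and so slow electron flow and ATP synthesis in mitochondria. The compounds share this binding group in different chemical forms, a methoxyacrylate in picoxystrobin, a methoxycarbamate in pyraclostrobin and an oximinoacetate in trifloxystrobin. In mammalian cells, inhibitors of the respiratory chain are known to engage the integrated stress response, in which ATF4 raises genes of amino acid synthesis and transport, and they can alter the balance between respiration and glycolysis. Genes of these processes were followed beside ribosomal, cell cycle, thyroid hormone and cell type genes, in lists chosen with earlier results of these data known.

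Total counts of the 8 libraries ranged from 12292390 to 18188099, with a median of 16231962, and mitochondrially encoded genes took 9.30% to 11.6% of the counts. The 28 pairs among the 8 libraries differed in 22355 to 23553 genes, whereas the counts of the second DMSO library were identical to those of azoxystrobin at 100 nM, which was left out for that reason. Which of the 2 labels these counts belong to cannot be told, and the main counts are therefore also given without the second DMSO library. First and second follow the sample titles, since the headers inside the count tables number the controls the other way round. The progenitor marker Nes, the intermediate filament nestin, stood at 148 to 171 CPM in all 8 libraries. Of the 18 progenitor markers listed, 12 passed the minimum of 10 CPM on average and 4 were under 1 CPM in every library. The 7 microglial markers together reached 5.20 to 7.73 CPM, with 2 of them at 0, and 8 of the 10 neuronal markers were under 1 CPM. The 10 mesenchymal markers, the collagens Col1a1 and Col1a2 among them, together reached 6593 to 8860 CPM, with 3 of them under 1 CPM. The 18 progenitor markers together reached 3884 to 4592 CPM. The 9 oligodendrocyte lineage markers together reached 1388 to 1552 CPM, also with 3 under 1 CPM. These are bulk libraries, in which fewer cells of a type and less RNA per cell cannot be told apart.

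At 30 and 100 nM the differences were small, and no gene passed the adjusted threshold in the pooled comparison. Of the 9747 genes, edgeR's quasi-likelihood test called 0 (0%) at a Benjamini-Hochberg adjusted p under 0.05, the lowest adjusted p being 0.216, while 1555 had an unadjusted p under 0.05. DESeq2 called 35 genes higher (0.480% of the 7290 to which it gave an adjusted p) and 39 lower (0.535%). In all 74 of these genes the 6 exposed libraries lay on 1 side of both DMSO libraries. By that criterion alone, without a test, 833 genes (8.55%) lay above both DMSO libraries and 848 (8.70%) below, 1681 in all (17.2%). For a single gene, the exact permutation test of 6 libraries against 2 cannot give a two-sided p below 0.0714. The median log2 fold change was 0.22 among the genes above and -0.25 among those below, and 16 and 14 of them exceeded 0.5 on the log2 scale in size. Without the second DMSO library 4107 genes lay on 1 side of the remaining DMSO library, and without the first 2631 did. Leaving out both trifloxystrobin libraries raised the number of edgeR calls from 0 to 537, with 197 higher and 340 lower, and a model with 1 level per compound called 373, with 121 higher and 252 lower.

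Genes above and below DMSO differed in base composition and in length. The longest annotated transcript of the genes above had a median GC content of 45.4% and a median length of 2630 bases, against 54.6% and 4243 bases for the genes below, and 48.9% and 3530 bases for all tested genes. Of the 598 genes with a GC content under 40%, 12.2% lay above both DMSO libraries and 0.502% below. Of the 287 genes at 60% GC or more, 0 lay above and 27.9% below. To show stretches of these transcripts, the middle 90 bases of the longest coding exon are printed for the first 3 protein-coding genes named in each direction, 5′ to 3′ on the transcript's strand (GENCODE M21, GRCm38), with G and C in capitals. The genes above are Rpl22 (chr4:152332306-152332395, plus strand, exon 4 of 4), Immp1l (chr2:105937011-105937100, plus strand, exon 5 of 7) and Rps3a1 (chr3:86139100-86139189, minus strand, exon 4 of 6). The genes below are Ulk1 (chr5:110790302-110790391, minus strand, exon 19 of 28), Ephb3 (chr16:21218146-21218235, plus strand, exon 6 of 17) and Six5 (chr7:19096581-19096670, plus strand, exon 2 of 3).
Rpl22: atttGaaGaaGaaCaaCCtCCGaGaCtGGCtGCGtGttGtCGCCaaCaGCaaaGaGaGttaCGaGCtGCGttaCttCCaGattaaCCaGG
Immp1l: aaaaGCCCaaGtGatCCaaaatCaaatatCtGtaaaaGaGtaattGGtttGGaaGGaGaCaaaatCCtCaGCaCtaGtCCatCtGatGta
Rps3a1: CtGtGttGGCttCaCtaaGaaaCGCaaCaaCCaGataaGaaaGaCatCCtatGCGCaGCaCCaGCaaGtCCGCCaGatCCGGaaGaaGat
Ulk1: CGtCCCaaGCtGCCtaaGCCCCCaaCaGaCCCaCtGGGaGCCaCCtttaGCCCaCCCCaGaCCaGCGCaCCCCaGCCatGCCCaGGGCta
Ephb3: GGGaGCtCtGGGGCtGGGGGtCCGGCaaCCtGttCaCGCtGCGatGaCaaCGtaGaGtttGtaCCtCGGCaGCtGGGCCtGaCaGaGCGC
Six5: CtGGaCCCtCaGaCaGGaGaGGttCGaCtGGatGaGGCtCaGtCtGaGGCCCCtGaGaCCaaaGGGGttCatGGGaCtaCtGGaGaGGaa
In these windows G and C made up 48.9%, 36.7% and 48.9% of the bases in Rpl22, Immp1l and Rps3a1, and 66.7%, 64.4% and 57.8% in Ulk1, Ephb3 and Six5. The windows of Rpl22 and Rps3a1 were thus at the median GC content of all tested transcripts, and among the 3 genes above Immp1l was the one below it here.

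**Figure D1:**
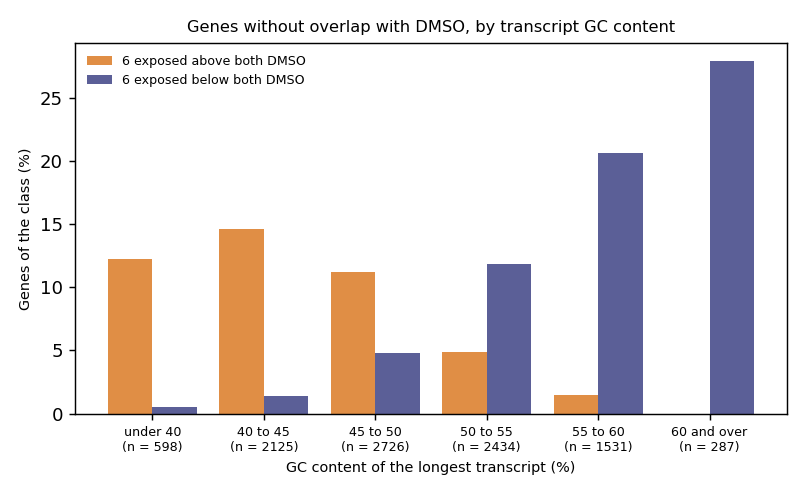
Share of tested genes (vertical axis, %) whose 6 exposed libraries lay above both DMSO libraries (orange) or below both (blue), by the GC content of the longest transcript (horizontal axis, %, with the number of genes). The share above is 11.2% to 14.6% in the bins under 50% GC and 0% at 60% and over, and the share below climbs from 0.502% in the lowest bin to 27.9% in the highest.

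The correlation with GC content was negative in each exposed library, though weak in pyraclostrobin at 100 nM, and between the DMSO libraries. Across the 9701 genes with a transcript, the log2 difference of a library from the DMSO mean had a correlation with GC content of -0.634 and -0.704 in picoxystrobin at 30 and 100 nM. In pyraclostrobin it was -0.374 and -0.0982, and in trifloxystrobin -0.336 and -0.286. The second DMSO library against the first gave -0.404, so the solvent controls differed along the same axis. Pyraclostrobin libraries had in addition a correlation with transcript length of -0.315 and -0.386. These are descriptions across genes, which are not independent and share a library. After the trends of each library on transcript GC and length were taken out, 683 genes lay above both DMSO libraries and 561 below, and 436 and 340 genes were among those above and below without the correction. The trends were fitted in exposed and DMSO libraries alike, so differences between them that follow GC content or length were taken out too, whatever their origin. The part of composition and length in the differences was not tested further. Values after this correction are given beside many of the genes and groups.

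Among the genes above both DMSO libraries, those named by the lowest unadjusted p were led by ribosomal protein genes, none of them called by edgeR. Rpl22, a protein of the large cytosolic ribosomal subunit (chr4:152325742-152334071), had 190 and 196 CPM in the DMSO libraries. It had 275 and 251 CPM in picoxystrobin at 30 and 100 nM, 278 and 271 in pyraclostrobin, and 224 and 250 in trifloxystrobin. The lowest exposed library was trifloxystrobin at 30 nM, above the higher DMSO library as the choice of genes requires. The log2 fold change of Rpl22 was 0.42 ± 0.089 (SE) with an edgeR adjusted p of 0.216 and a DESeq2 adjusted p of 0.00903, and after the correction for composition it was 0.37 with no overlap. Rps3a1, of the small subunit (chr3:86137940-86142702), had 113 and 125 CPM in DMSO and 202, 208, 170, 170, 147 and 163 CPM in the exposed libraries in the same order. Picoxystrobin gave the highest and trifloxystrobin the lowest values, and the log2 fold change was 0.57 ± 0.123 (SE), or 0.44 after the correction. Its copies Rps3a2, chosen after its values were seen, and Rps3a3 lay above both DMSO libraries too, at log2 fold changes of 0.50 and 0.58, but such near-identical copies can share reads and are uncertain as separate genes. Rps4x had 149 and 164 CPM in DMSO and 185 to 214 CPM with the strobilurins. Rps27l, a ribosomal protein paralog induced by p53, had 124 and 152 CPM in DMSO and 164 to 218 CPM in the exposed libraries. The processed pseudogene Rps24-ps3, at 518 and 598 CPM in DMSO and 673 to 845 CPM with the strobilurins, has a log2 fold change of 0.41 that shrank to 0.19 after the correction.

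Genes of other functions completed the genes named above DMSO. Immp1l encodes a peptidase of the inner mitochondrial membrane (chr2:105904638-105965558), and had 7.31 and 9.17 CPM in DMSO against 13.6, 13.3, 13.1, 11.7, 11.3 and 11.9 CPM in the exposed libraries. Its log2 fold change was 0.60 ± 0.129 (SE), and 0.45 without the first DMSO library. Sptssa, a small subunit of serine palmitoyltransferase, the first enzyme of sphingolipid synthesis, had 118 and 134 CPM in DMSO and 147 to 190 CPM in the exposed libraries. Picoxystrobin was again at the top of that range and trifloxystrobin at 30 nM at its bottom. Txndc16, a thioredoxin-domain protein of the secretory pathway, had 40.8 and 43.4 CPM in DMSO and 49.7 to 56.2 CPM with the strobilurins. Luzp2, a leucine zipper protein, had 19.5 and 21.4 CPM in DMSO and 25.5 to 30.2 CPM with the strobilurins. Uchl4, a ubiquitin hydrolase gene at 12.4 and 13.4 CPM in DMSO and 16.1 to 21.8 CPM in the exposed libraries, overlaps Map2k1 on the other strand, and whether the counting used strand is not given in the sources used here. After the correction these 10 genes still lay above both DMSO libraries, with log2 fold changes from 0.19 in Rps24-ps3 and 0.20 in Sptssa to 0.44 in Rps3a1. Of the 833 genes above, 115 carry only gene-model names, against 21 of the 848 below.

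**Figure D2:**
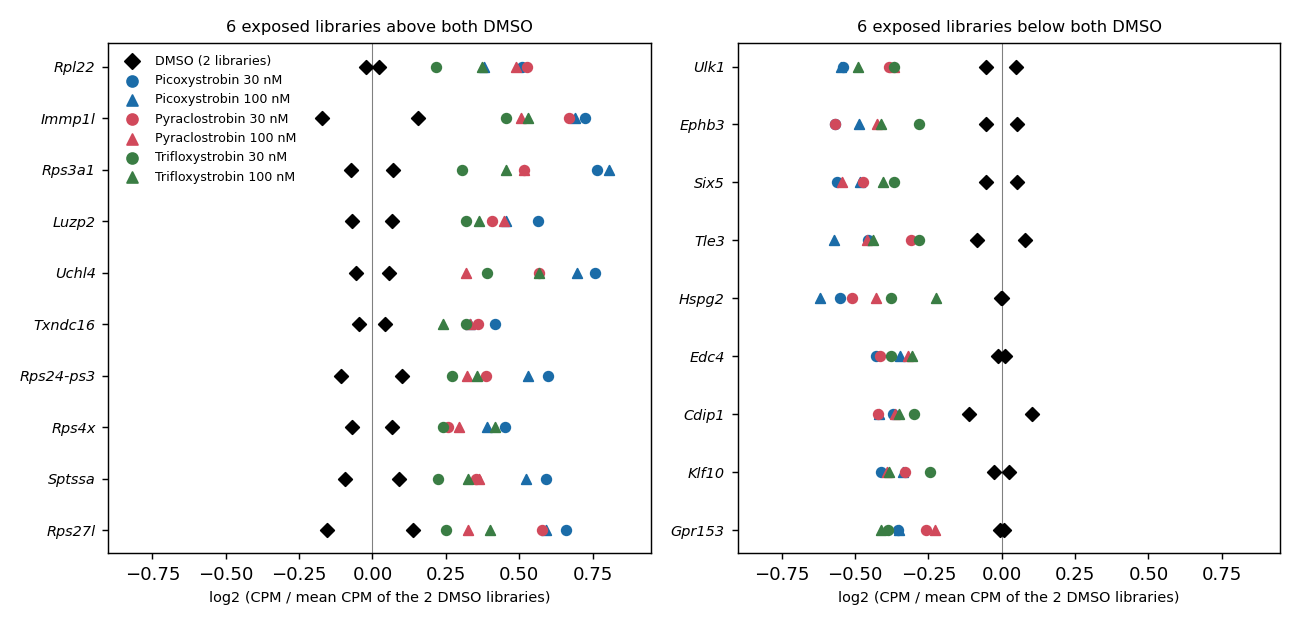
Log2 ratio of the CPM in each library to the mean CPM of the 2 DMSO libraries (horizontal axis) for the 10 genes named above DMSO (left) and 9 of those named below (right). Each point is 1 library, black diamonds are DMSO, colours are compounds, circles are 30 nM and triangles 100 nM. The genes were chosen among those without overlap, so the gap between exposed and DMSO libraries is fixed by the choice.

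The genes named below both DMSO libraries, also by the lowest unadjusted p, had varied functions, and none was called by edgeR. Ulk1, the kinase that starts autophagy (chr5:110784488-110810097), had 49.6 and 46.2 CPM in the DMSO libraries. It had 32.9 and 32.8 CPM in picoxystrobin at 30 and 100 nM, 36.7 and 37.1 in pyraclostrobin, and 37.1 and 34.1 in trifloxystrobin. The 3 compounds were within a narrow band of each other and all well under DMSO. The log2 fold change of Ulk1 was -0.45 ± 0.084 (SE), with an edgeR adjusted p of 0.216 and a DESeq2 adjusted p of 0.00708, and -0.22 after the correction. Ephb3, a receptor of membrane-bound ephrins (chr16:21204755-21223305), had 71.1 and 76.4 CPM in DMSO and 49.8, 52.7, 49.8, 55, 60.7 and 55.5 CPM in the exposed libraries. Trifloxystrobin at 30 nM was the nearest to DMSO for Ephb3, and its log2 fold change of -0.45 was -0.26 after the correction. The transcription regulators Six5, Tle3 and Klf10 had log2 fold changes of -0.47, -0.42 and -0.35. Six5 is a homeobox factor, Tle3 a Groucho-type corepressor and Klf10 an early gene of TGF-beta signalling, and after the correction Six5 overlapped with DMSO while Tle3 and Klf10 did not, at -0.24 and -0.40. Edc4, the scaffold of the mRNA decapping complex, had 42.9 and 42.2 CPM in DMSO and 31.6 to 34.4 CPM with the strobilurins, a log2 fold change of -0.36 that was -0.19 after the correction. Cdip1, a pro-apoptotic membrane protein downstream of p53, had 75.8 and 65.3 CPM in DMSO and 52.7 to 57.4 CPM with the strobilurins. Its log2 fold change of -0.37 was -0.41 after the correction. Gpr153, an orphan receptor with a log2 fold change of -0.33, came to -0.08 after the correction and then overlapped with DMSO.

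Genes for cytosolic ribosomal proteins, the structural parts of the translating ribosome, had more members above DMSO than below. Of 65 tested members, 25 lay above both DMSO libraries and 1 below, 39 overlapped, and 51 had a positive log2 fold change, while 8.55% of all genes lay above. The median log2 fold change of the list was 0.18, against 0.00 over all tested genes. DESeq2 called 8 members, against 74 of the 7290 genes to which it gave an adjusted p. Relative to the DMSO mean, the median member was higher by 0.22 and 0.17 in picoxystrobin at 30 and 100 nM on the log2 scale, by 0.24 and 0.23 in pyraclostrobin, and by 0.06 and 0.13 in trifloxystrobin. The DMSO libraries were at -0.05 and 0.05, so trifloxystrobin at 30 nM was barely above the second of them. After the correction 21 members lay above both DMSO libraries and 4 below, with a median of 0.10. Over all 9747 tested genes 683 and 561 then did. Without the second DMSO library 37 members lay above the first, as did 2053 of all 9740 genes tested in that setting. Rplp2, the acidic stalk protein, was the member below, at 40.8 and 39.9 CPM in DMSO and 33.1 to 39.6 CPM with the strobilurins. Rplp2 thus lay on the other side of DMSO from Rpl22 and Rps3a1. Many of these genes have processed copies elsewhere in the genome, and how the counting shared reads between them is not given in the sources used here.

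Genes for proteins of mitochondria, the organelle in which strobilurins act, mostly overlapped with DMSO, as did 8066 of all 9747 tested genes. Of 14 tested genes for complex III subunits and assembly factors, 3 lay above both DMSO libraries and 0 below, against 8.55% above and 8.70% below among all tested genes. Uqcrc2, a core subunit, had 40.2 and 36.3 CPM in DMSO and 47.8, 46.1, 51.1, 48.9, 44 and 42.9 CPM with the strobilurins, a log2 fold change of 0.29 ± 0.090 (SE). Uqcrb, the subunit that binds ubiquinone, had 32.6 and 36.2 CPM in DMSO and 37.5 to 58 CPM in the exposed libraries. The third, Uqcrh, the hinge protein of the complex, was added after its values were seen and had 163 and 155 CPM in DMSO and 174 to 204 CPM with the strobilurins. The highest value of Uqcrc2 and Uqcrh came with pyraclostrobin at 30 nM and that of Uqcrb with picoxystrobin at 100 nM. After the correction Uqcrc2, Uqcrb and Uqcrh overlapped with DMSO, and 1 other gene of the 14 lay above and 2 below. Over all 9747 tested genes 683 and 561 then did. The median log2 fold change of the list went from 0.13 to 0.05. The mitochondrially encoded cytochrome b, mt-Cytb, also chosen after its values were seen, overlapped with DMSO, at 16406 and 15623 CPM in DMSO and from 13543 CPM in trifloxystrobin at 30 nM to 21349 CPM in pyraclostrobin at 30 nM.

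The other respiratory and mitochondrial lists had positive medians before the correction. Among all tested genes 8.55% lay above both DMSO libraries and 8.70% below, and after the correction 683 and 561 of the 9747 genes did. Of 60 nuclear genes for complexes I, IV and V, 13 lay above both DMSO libraries and 1 below, with a median of 0.08, and 13 and 2 did after the correction. Cox7a2, a subunit of cytochrome c oxidase, had 159 and 173 CPM in DMSO and 186 to 232 CPM with the strobilurins, and Cox6c 63.9 and 74.1 CPM against 75.6 to 102 CPM. Ndufa3, a subunit of complex I, was the member below, at 59 and 61.4 CPM against 48.9 to 57.3 CPM. Of 71 mitochondrial ribosomal protein genes, 14 lay above and 1 below, with a median of 0.07, and after the correction 9 and 5, with a median of 0.02. Mrpl33 and Mrps31 were the members farthest above, with log2 fold changes of 0.37 and 0.29 that were 0.30 and 0.18 after the correction, and Mrps10 was the member below, at -0.19. None of the 9 mitochondrially encoded transcripts tested lay on 1 side, although 8 had a positive log2 fold change and their median was 0.20. That median turned to -0.05 after the correction for composition and length.

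The integrated stress response separated the exposed libraries from one another and not from DMSO. None of its 26 tested genes lay above or below both DMSO libraries, against 17.2% of all tested genes. Of the 26, 2 had a positive log2 fold change, and the median was -0.21. Relative to the DMSO mean, the median member was at -0.51 and -0.02 in picoxystrobin at 30 and 100 nM, at -0.51 and -0.19 in pyraclostrobin, and at 0.45 and -0.79 in trifloxystrobin. The DMSO libraries were at -0.16 and 0.16. The 2 trifloxystrobin libraries were therefore the highest and the lowest of all 8. Aldh1l2, a mitochondrial enzyme of folate metabolism, and the ATF4 targets Trib3 and Chac1 were chosen after their values were seen to show this spread. Aldh1l2 had 221 and 381 CPM in DMSO, 184 and 300 in picoxystrobin, 165 and 245 in pyraclostrobin, and 532 and 132 in trifloxystrobin at 30 and 100 nM. Trib3, a pseudokinase that feeds back on ATF4, had 23.0 and 35.3 CPM in DMSO, 58.7 in trifloxystrobin at 30 nM and 8.01 at 100 nM. Chac1, which degrades glutathione, had 22.0 and 32.6 CPM in DMSO, 45 in trifloxystrobin at 30 nM and 2.87 at 100 nM. All 3 genes were higher in the second DMSO library than in the first. With 1 library for each compound at each concentration, these differences have no replicate check.

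The cytosolic aminoacyl-tRNA synthetases, which charge tRNAs and of which several are ATF4 targets, had the exposed libraries in the same order. The median of the 20 tested genes was highest in trifloxystrobin at 30 nM, at 0.25 on the log2 scale, and lowest in trifloxystrobin at 100 nM, at -0.26. No member lay below both DMSO libraries, against 8.70% of all tested genes, where 8.55% lay above. Rars was the member above, at 99.9 and 113 CPM in DMSO and 119 to 132 CPM with the strobilurins. Its log2 fold change of 0.21 was 0.11 after the correction, and it then overlapped with DMSO. Cell cycle genes had the trifloxystrobin libraries the other way round. Of 32 tested genes of mitosis none lay on 1 side of DMSO, against 17.2% of all tested genes. Of the 32, 28 had a positive log2 fold change, with a median of 0.15 over the list. Their median was -0.25 in trifloxystrobin at 30 nM and 0.35 at 100 nM, where it was level with picoxystrobin at 30 nM, and 0.14 and -0.14 in the DMSO libraries. Cdk1, the kinase that drives entry into mitosis, and Ccnb1, its cyclin, were again picked after their values were seen. Cdk1 had 283 and 204 CPM in DMSO, 320 and 248 in picoxystrobin, 319 and 264 in pyraclostrobin, and 175 and 378 in trifloxystrobin. Ccnb1 had 102 and 89.4 CPM in DMSO and 80.4 and 119 CPM in trifloxystrobin at 30 and 100 nM. Of 36 DNA replication genes 2 lay above, against 8.55% of all tested genes. Rpa3, of the single-strand binding complex, had a log2 fold change of 0.31 that came to 0.02 after the correction. Rfc1, of the clamp loader, had 0.15 that came to 0.13. For this list trifloxystrobin at 30 and 100 nM had the lowest and the highest median, at -0.24 and 0.37.

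**Figure D3:**
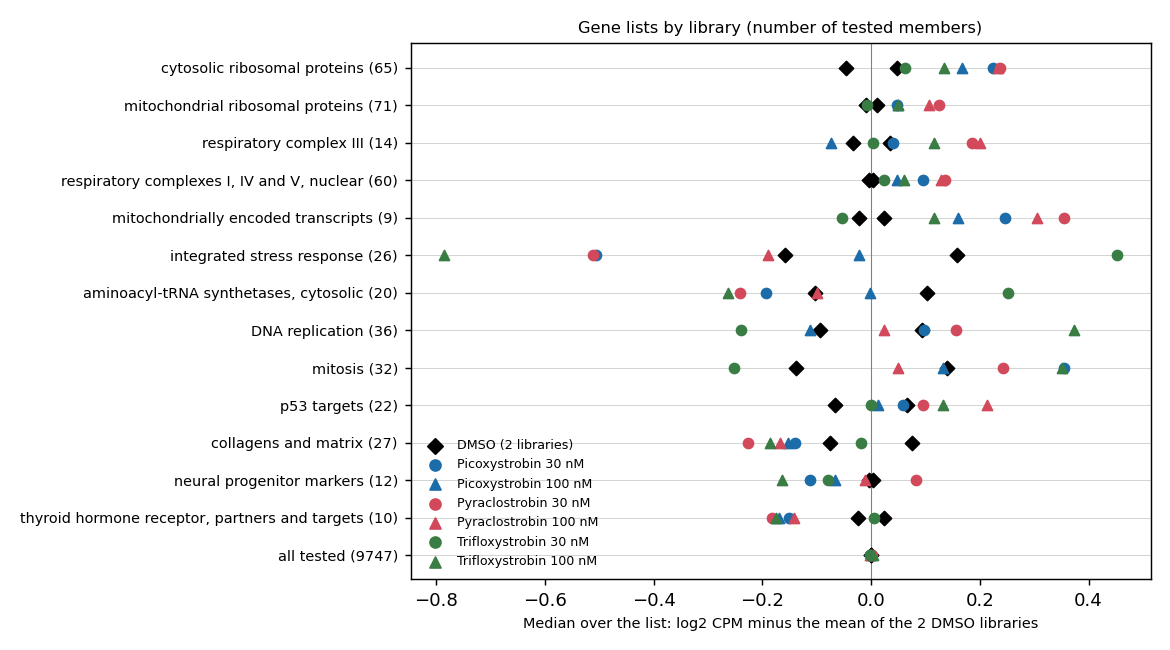
Median over the tested members of each gene list of the log2 CPM minus the mean of the 2 DMSO libraries (horizontal axis), 1 point per library, with the number of tested members in parentheses. Black diamonds are DMSO, colours are compounds, circles are 30 nM and triangles 100 nM. Trifloxystrobin at 30 and 100 nM is at opposite ends for the integrated stress response (0.45 and -0.79), for mitosis it is lowest at 30 nM (-0.25) and level with picoxystrobin at 30 nM at the top at 100 nM (0.35), and all 6 exposed libraries lie to the right of DMSO for the cytosolic ribosomal proteins.

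Other stress pathways are given against the shares over all tested genes, 8.55% above both DMSO libraries and 8.70% below. Of 22 tested p53 targets 2 lay above both DMSO libraries and 0 below. Ccng1, cyclin G1, had 378 and 352 CPM in DMSO, 528 and 491 in picoxystrobin, 537 and 576 in pyraclostrobin, and 386 and 539 in trifloxystrobin. Trifloxystrobin at 30 nM was close to DMSO and the other 5 libraries well above it. The log2 fold change of Ccng1 was 0.48 ± 0.122 (SE), with an edgeR adjusted p of 0.216 and a DESeq2 adjusted p of 0.0328, and 0.36 after the correction, when it overlapped with DMSO. Mdm2, the ubiquitin ligase of p53, had 182 and 190 CPM against 200 to 216 CPM, a log2 fold change of 0.15. Of 21 genes of NRF2 and antioxidant defence 2 lay above, the peroxiredoxin Prdx1 and the malic enzyme Me1, with log2 fold changes of 0.25 and 0.11 that came to 0.10 and 0.03 after the correction. Of 19 endoplasmic reticulum genes 2 lay below, the ubiquitin ligase Syvn1 with -0.50 and the chaperone Hyou1 with -0.24, which came to -0.32 and -0.13 after the correction. Of 15 cytosolic and mitochondrial chaperones, the mitochondrial co-chaperonin Hspe1 and Hspa4 lay above, with 0.21 and 0.19, and the co-chaperone Bag3 below, with -0.44. After the correction these were 0.03, 0.17 and -0.32. All of Prdx1, Me1, Syvn1, Hyou1 and Hspe1 then overlapped with DMSO. Hist1h1c, a linker histone and 1 of 2 clustered histone genes tested, had 11.8 and 14.5 CPM in DMSO and 14.6 to 24.2 CPM with the strobilurins. Snhg8, a small RNA host gene and the member above among 12 noncoding genes, had 69.3 and 72.7 CPM in DMSO and 73.0 to 107 CPM with the strobilurins. It overlapped with DMSO after the correction, when its log2 fold change of 0.44 was 0.26.

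Metabolic lists had 1 to 3 members outside the DMSO range, against 8.55% above and 8.70% below among all tested genes. Of 24 tested genes of cholesterol synthesis and uptake, Stard4, a sterol carrier, lay above at 140 and 140 CPM against 148 to 153 CPM. Mvk, mevalonate kinase, lay below at 34.8 and 32.8 CPM against 21.4 to 31.4 CPM, and Srebf2, the transcription factor of the pathway, at 477 and 428 CPM against 333 to 422 CPM. After the correction Srebf2 came to -0.07 from -0.28 and Stard4 to 0.05 from 0.10, and both overlapped with DMSO. Of 24 genes of glycolysis and the hypoxia response the glycolytic enzyme Aldoc lay below, at 38.4 and 46.7 CPM in DMSO and 25.9 to 37.7 CPM with the strobilurins, and overlapped with DMSO after the correction. The median log2 fold change of that list was -0.03.

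Thyroid hormone receptor genes and their targets mostly overlapped with DMSO. Of 10 tested genes 1 lay below both DMSO libraries, against 8.70% of all tested genes. None of the 10 had a positive log2 fold change, and their median of -0.12 became -0.03 after the correction. Without the second DMSO library 6 of the 10 lay below the first, as did 2054 of all 9740 genes tested in that setting. Thra, the receptor that the line overexpresses, had 77.8 and 67.9 CPM in DMSO and 58.3 to 74.1 CPM with the strobilurins. The ranges overlapped, and reads of the transgene and of the endogenous gene cannot be told apart in these counts. Klf9, a direct target of the receptor, had 27.0 and 30.4 CPM in DMSO and 23.3 to 31.7 CPM with the strobilurins, a log2 fold change of -0.05 ± 0.112 (SE) that was 0.04 without the second DMSO library. Rxrb, a partner of the receptor, was the gene below, at 14.4 and 13.9 CPM against 8.68 to 12.6 CPM, and overlapped after the correction. Hr, another direct target, stood at 4.08 and 4.17 CPM in DMSO and 2.85 to 4.10 CPM in the exposed libraries, under the minimum for testing. Hprt, often used as a reference gene, had 147 and 169 CPM in DMSO and 174 to 211 CPM with the strobilurins. All 6 exposed libraries were above DMSO for Hprt, with a log2 fold change of 0.25 ± 0.088 (SE), an edgeR adjusted p of 0.231 and a corrected log2 fold change of 0.04.

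Some neural progenitor regulators lay below DMSO and nestin above it. Of 12 tested progenitor markers 4 lay below both DMSO libraries and 1 above, against 8.70% and 8.55% of all tested genes. DESeq2 called 3, against 74 of the 7290 genes to which it gave an adjusted p. After the correction 3 lay below and 1 above, against 561 and 683 of all 9747 tested genes. Notch1, the receptor that maintains neural progenitors, had 55.9 and 46.9 CPM in DMSO, 27.5 and 32.4 in picoxystrobin, 31.7 and 38.5 in pyraclostrobin, and 45.3 and 36.2 in trifloxystrobin. Its log2 fold change was -0.55 ± 0.145 (SE), with an edgeR adjusted p of 0.216 and a DESeq2 adjusted p of 0.0499, and -0.29 after the correction without overlap. Sox9, a transcription factor of glial and stem cells, had 34.7 and 29.3 CPM in DMSO and 18.0, 19.5, 25.3, 25.6, 24.0 and 23.0 CPM with the strobilurins. Its log2 fold change of -0.50 was nearly the same after the correction, at -0.49. Nes had 148 and 153 CPM in DMSO and 159 to 171 CPM in the exposed libraries, and the median of the list was -0.05. Few markers of mature cells were tested. Neither of 2 neuronal genes lay on 1 side of DMSO, and Gja1, a gap junction protein of astrocytes, lay below among 2 astrocyte genes with a log2 fold change of -0.07. None of the microglial markers reached the minimum for testing.

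Matrix and early response genes had more members below DMSO than above before the correction and not after it. Among all tested genes 8.70% lay below and 8.55% above before the correction, and 561 and 683 of the 9747 did after it. Of 27 tested collagen and matrix genes 7 lay below both DMSO libraries and 0 above, with a median log2 fold change of -0.15. After the correction 0 lay below and 0 above, and the median was 0.03. Without the first DMSO library 19 of them lay below the second, and without the second 8 lay below the first. Over all tested genes 1343 of 9738 and 2054 of 9740 did so. Col1a1, the main chain of type I collagen, had 4093 and 4728 CPM in DMSO, 3255 and 3334 in picoxystrobin, 2817 and 3031 in pyraclostrobin, and 4086 and 3008 in trifloxystrobin. Trifloxystrobin at 30 nM was just under the first DMSO library and the other 5 libraries well under it. Hspg2, the basement membrane proteoglycan perlecan, had 555 and 553 CPM in DMSO and 361 to 474 CPM with the strobilurins, a log2 fold change of -0.45 that came to -0.08 after the correction. Of 7 tested mesenchymal markers 2 lay below, Col1a1 and Col1a2, the latter with a log2 fold change of -0.10 and of 0.09 after the correction. Of 19 immediate early genes 5 lay below and 1 above, and after the correction 1 lay below and 3 above. Ier2 had 18.8 and 19.9 CPM in DMSO and 13.2 to 17.8 CPM with the strobilurins, and Ier3, the member above, 50.1 and 48.4 CPM against 52.1 to 73.7 CPM. Early genes code for short-lived regulators. Zinc finger genes named Zfp, a large family of DNA-binding proteins, had 10 of 193 above and 23 below, with a median of -0.01, and 8 and 28 after the correction. Zfp579 and Zfp574 were the members farthest below, with log2 fold changes of -0.59 and -0.53, and Zfp944 and Zfp938 the named members above, with 0.33 and 0.31.

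Exceptions were counted for each compound as the genes in which the 4 libraries of the other compounds lay on 1 side of both DMSO libraries and its own 2 did not. For picoxystrobin 1916 genes had the other 4 libraries on 1 side, and its own libraries were both on that side in 1681, 1 of them in 140 and neither in 95. Without the first DMSO library the genes with neither were 384 for picoxystrobin, 253 for pyraclostrobin and 277 for trifloxystrobin, and without the second 117, 278 and 144, so the order of the compounds by this count rests on the DMSO libraries. For pyraclostrobin 2407 genes qualified, with 507 for which 1 own library was on that side and 219 for which neither was. For trifloxystrobin 3707 genes qualified, with 1721 for which 1 own library was on that side and 305 for which neither was. Trifloxystrobin was the compound that most often kept a gene from the set without overlap, and in 993 genes it did so at 30 nM alone and in 728 at 100 nM alone. Among the 1681 genes, trifloxystrobin at 30 nM was the exposed library nearest to DMSO in 727 and trifloxystrobin at 100 nM in 432, whereas picoxystrobin at 30 nM was the nearest in 46. Genes in which both libraries of the compound lay on the opposite side of DMSO numbered 43 for picoxystrobin, 77 for pyraclostrobin and 47 for trifloxystrobin.

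**Figure D4:**
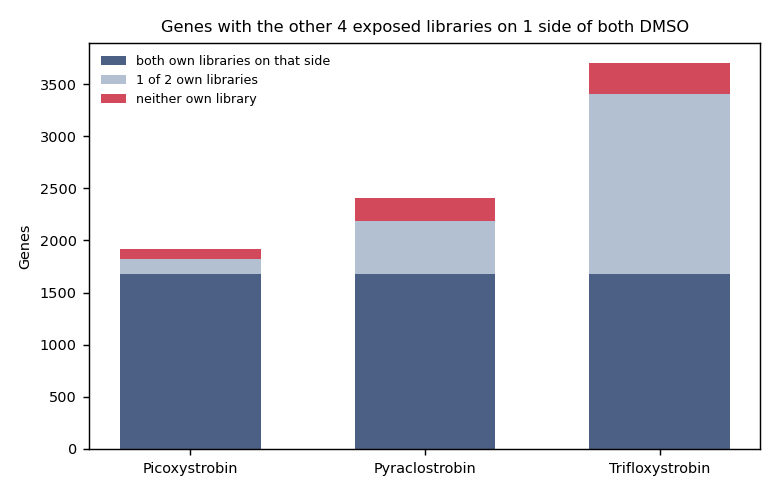
Number of genes (vertical axis) in which the 4 libraries of the other compounds lay on 1 side of both DMSO libraries, divided by how many of the named compound's own 2 libraries were on that side. Bars start at 0, and the 1681 genes with both own libraries are the same in the 3 bars. The part with 1 own library is the largest for trifloxystrobin, at 1721 genes, against 507 and 140 for pyraclostrobin and picoxystrobin.

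The exceptions with the largest gap between a compound and the others are given as values only, since they were chosen for that gap. For picoxystrobin they were Cyp39a1, BC005561 and Rpsa. Cyp39a1, an oxysterol hydroxylase of bile acid synthesis, had 33.8 and 36.4 CPM in DMSO, 44.8 and 47.6 in picoxystrobin, 33.7 and 31.1 in pyraclostrobin, and 32.3 and 32.8 in trifloxystrobin. Rpsa, a small-subunit ribosomal protein, had 61.8 and 60.2 CPM in DMSO, 50.4 and 45.6 in picoxystrobin, and 65.0 to 67.2 in the other compounds. Picoxystrobin thus had high Cyp39a1 and low Rpsa, and BC005561 followed Cyp39a1 with 14.2 and 15.3 CPM against 9.23 to 11.3 CPM in the other compounds. For pyraclostrobin they were the gene models Gm11639, Gm14150 and 1810026B05Rik, the last at 12.1 and 11.2 CPM in pyraclostrobin, 12.8 and 14.7 in DMSO and 15.2 to 17.5 in the other compounds. Gm11639 overlaps Efcab3 and 1810026B05Rik overlaps Chd2, so their reads may belong to either gene. For trifloxystrobin they were Neat1, Chka and Gbp2. Neat1, the noncoding RNA that builds paraspeckles, had 60.5 and 55.1 CPM in DMSO, 39.0 and 35.9 in picoxystrobin, 38.4 and 37.6 in pyraclostrobin, and 70.4 and 55.2 in trifloxystrobin. Chka, choline kinase alpha of phosphatidylcholine synthesis, had 48.5 and 48.2 CPM in DMSO, 43.1 and 41.9 in picoxystrobin, 32.7 and 32.5 in pyraclostrobin, and 51.2 and 57.7 in trifloxystrobin. Gbp2, a guanylate-binding protein induced by interferon, had 11.8 and 13.7 CPM in trifloxystrobin and 16.1 to 20.5 CPM in the other compounds.

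At matched 30 and 100 nM the 3 pairs of compounds were compared across all 9747 genes, with p-values adjusted over genes and pairs together. edgeR called 0 genes (0%) in each pair, the lowest adjusted p being 0.071, while 2131, 2156 and 980 genes had an unadjusted p under 0.05 in pyraclostrobin against picoxystrobin, trifloxystrobin against picoxystrobin and trifloxystrobin against pyraclostrobin. DESeq2 called 106, 94 and 44. The median half-width of the 95% confidence interval of a pair difference was 0.23 on the log2 scale, without adjustment over genes. Smaller differences between a methoxyacrylate, a methoxycarbamate and an oximinoacetate were thus not detectable for a typical gene. Larger ones also missed the adjusted threshold of edgeR. The noncoding gene 3110039I08Rik, whose span on chromosome 9 holds microRNA genes, had 136 and 151 CPM in DMSO, 138 and 144 in picoxystrobin, 87.6 and 94.0 in pyraclostrobin, and 130 and 132 in trifloxystrobin. It was lowest with pyraclostrobin, with a log2 difference of pyraclostrobin from picoxystrobin of -0.64 (95% confidence interval -0.81 to -0.46), an edgeR adjusted p of 0.071 and a DESeq2 adjusted p of 5.6e-06. Chka differed by 0.74 between trifloxystrobin and pyraclostrobin (95% confidence interval 0.55 to 0.93), with an edgeR adjusted p of 0.071 and a DESeq2 adjusted p of 2.8e-05. Srsf5, a splicing factor, had 104 and 113 CPM in DMSO, 87.0 and 86.6 in picoxystrobin, 68.6 and 67.1 in pyraclostrobin, and 105 and 101 in trifloxystrobin. Its difference between trifloxystrobin and pyraclostrobin was 0.60 with the same edgeR adjusted p of 0.071. Gm42664, an intronic transcript of Ptbp2, had 23.2 CPM in both picoxystrobin libraries and 10.3 and 10.5 in pyraclostrobin, against 15.7 and 20.0 in DMSO. Gm5805, a processed pseudogene, had 86.2 and 72.9 CPM in picoxystrobin, 130 and 132 in pyraclostrobin and 103 and 92.8 in DMSO. Kctd21, a substrate adaptor of ubiquitin ligases, had 8.27 and 8.23 CPM in picoxystrobin, 12.1 and 12.4 in pyraclostrobin, 13.8 and 14.2 in trifloxystrobin and 13.5 and 14.4 in DMSO. Slc25a22, the mitochondrial glutamate carrier, had 22.9 and 20.6 CPM in picoxystrobin, 25.8 and 26.1 in pyraclostrobin, 34.6 and 32.1 in trifloxystrobin and 34.5 and 35.8 in DMSO. Picoxystrobin was the lowest for both Kctd21 and Slc25a22 and trifloxystrobin was within or near the DMSO range. Leaving out trifloxystrobin at 30 or 100 nM, and no other library, gave calls in the pairs, 407 and 504 in pyraclostrobin against picoxystrobin, 307 and 487 in trifloxystrobin against picoxystrobin, and 201 and 253 in trifloxystrobin against pyraclostrobin.

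**Figure D5:**
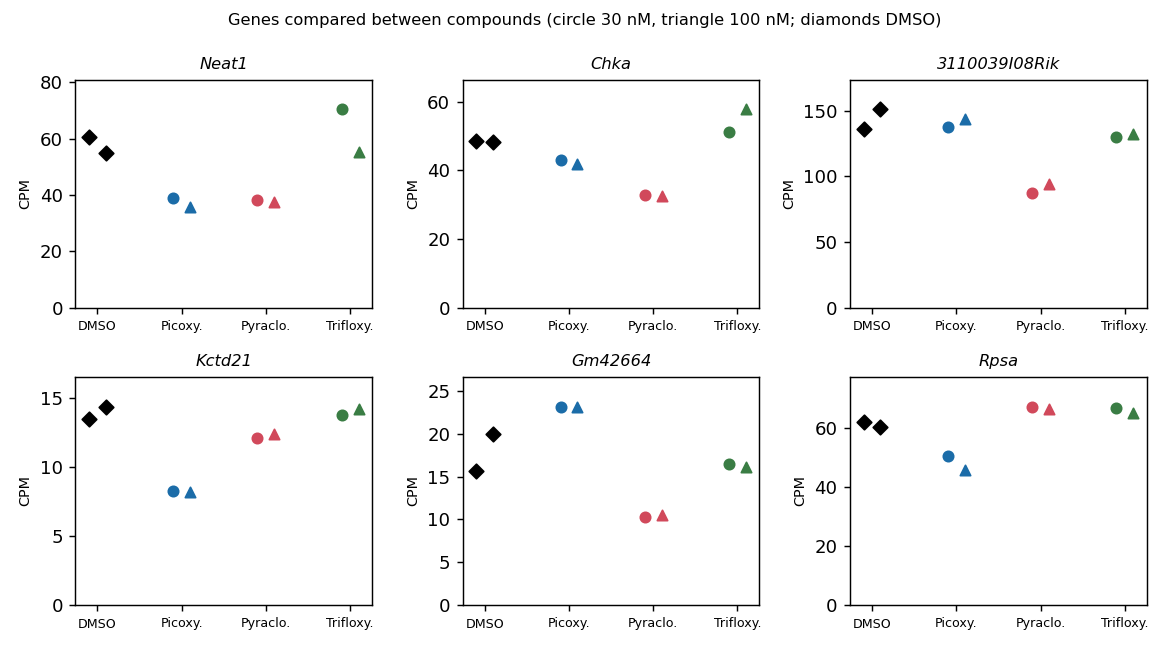
CPM (vertical axes, from 0) of 6 genes in the 8 libraries, by DMSO (black diamonds, replicates 1 and 2 from left to right) and compound, with circles for 30 nM and triangles for 100 nM. Trifloxystrobin is near DMSO for Neat1 and Kctd21 where picoxystrobin is lower, pyraclostrobin is the lowest for 3110039I08Rik at 87.6 and 94.0 CPM, and Rpsa is low in picoxystrobin at 50.4 and 45.6 CPM.

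Set against DMSO one by one, with 2 libraries in each arm, the compounds had unequal numbers of calls at 30 and 100 nM, a difference that was itself not tested. Picoxystrobin had 1952 genes at an edgeR adjusted p under 0.05 (20.0%), 870 higher and 1082 lower. Pyraclostrobin had 89 (0.913%), 22 higher and 67 lower. Trifloxystrobin had 0 (0%), with 573 at an unadjusted p under 0.05 and 0 by DESeq2. The order was also that of DESeq2, with 1608, 278 and 0, and these counts share the same DMSO libraries. After the correction for GC content and length edgeR called 6, 14 and 0 genes, and with the spread estimated over 15 libraries it called none for any compound. Picoxystrobin had 0 calls without the first DMSO library or without either of its own libraries, and 1354 without the second DMSO library. Pyraclostrobin had 0 without any 1 of the DMSO, picoxystrobin or pyraclostrobin libraries. Leaving out trifloxystrobin at 30 or 100 nM gave 3369 and 3382 calls for picoxystrobin and 907 and 897 for pyraclostrobin, and leaving out the former gave 182 for trifloxystrobin.

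No gene was called between the concentrations. Over the 3 compounds, 100 nM against 30 nM gave 0 calls of 9747 (0%) with edgeR, with 51 genes at an unadjusted p under 0.05, and 0 with DESeq2, with 7. The 2 concentrations were close in every compound for Kctd21. They were apart for Aldh1l2 in every compound, with the higher value at 100 nM in picoxystrobin and pyraclostrobin and at 30 nM in trifloxystrobin.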

How the data were processed

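RNA was sequenced from 16 libraries, 8 of them used here. The deposited values are raw read counts per gene, which the authors made by aligning reads with Bowtie2 2.3.2.2 to mm10, per the submitters' processing notes, and counting with htseq-count, per the study's methods. The annotation and strand setting of the counting are not given in the sources used here. No row was a counting summary in place of a gene (0). Members and gene lists were chosen with earlier results of these data known. Genes averaging over 10 CPM in the 8 libraries (9747) were tested with edgeR 4.0.16 (R 4.3.3, TMM, quasi-likelihood fit, Benjamini-Hochberg, threshold 0.05), pooled as 6 libraries against 2 and with 1 level per compound. CPM used TMM library sizes and log2 CPM a prior count of 2. DESeq2 1.42.0 was an alternative. The correction for transcript GC content and length fitted splines with 4 degrees of freedom per library. Positions, transcripts and sequences came from GENCODE M21 (GRCm38), where 53987 symbols matched. Total counts were 12292390 to 18188099, which gave a median half-width of the 95% confidence interval of 0.22 on the log2 scale in the pooled comparison, covering these libraries only. Genes were named by the lowest unadjusted p among genes without overlap (10 in each direction, leaving out gene models), the 3 largest exceptions per compound, the 3 lowest adjusted p per pair, at most 2 per list and direction by size, and Thra, Klf9, Hr and Hprt, and others are said to be chosen after their values were seen. Some genes that this rule names are not reported here. Alternatives were other size factors and filters, a robust fit, the spread over 15 libraries, the composition correction, concentration as a term, and leaving out each library or compound. The fit was tested on simulated data. Python 3.11.15 with pandas 2.3.3 and matplotlib 3.10.9 was used for summaries and plots.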

Additional observations from a re-analysis of the deposited data

Results flagged for a closer look

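Snhg8 in trifloxystrobin at 30 nM, at 73.0 CPM, stood apart from the other 5 exposed libraries, which had 96.6 to 107 CPM. Its gap to the nearest of them was 0.686 of the group's range, above Dixon's 95% critical value for 6 samples, which chance exceeds in about 1 in 20 groups. It was the only such library among the 88 genes examined.

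In 7 of the named genes both libraries of 1 compound lay above both DMSO libraries and both libraries of another lay below. Cyp39a1 was lower by a log2 difference of -0.51 in pyraclostrobin and of -0.51 in trifloxystrobin than in picoxystrobin. BC005561 gave -0.63 and -0.38 for the same pairs, and Rpsa 0.48 and 0.46. The gene model 1810026B05Rik was at -0.57 in pyraclostrobin against picoxystrobin and at 0.42 in trifloxystrobin against pyraclostrobin. Chka was at 0.36 in trifloxystrobin against picoxystrobin and at 0.74 against pyraclostrobin. Gm42664 and Gm5805 were at -1.16 and 0.72 in pyraclostrobin against picoxystrobin. These genes were found by their gaps, and no pair difference passed the edgeR threshold with Benjamini-Hochberg adjustment.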

How the results depend on the processing

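In the pooled comparison 15 of 19 alternatives gave 0 calls, among them each library left out in turn (a range of 0 to 0). The other 4 gave 74 with DESeq2, 155 without a filter on low counts, 537 without both trifloxystrobin libraries and 373 with 1 level per compound. The 1681 genes without overlap became 2845 without a filter, 3710 without both trifloxystrobin libraries and 1733 to 4107 with 1 library left out, of which leaving out DMSO replicate 1 gave 2631, replicate 2 gave 4107 and trifloxystrobin at 30 nM 2673. Genes in which neither library of a compound was on the side of the others numbered 117 to 384 for picoxystrobin, 253 to 278 for pyraclostrobin and 144 to 277 for trifloxystrobin without 1 DMSO library, the 384 without replicate 1 and the 144 without replicate 2. Exposed libraries were not left out there, since that changes the definition. Against DMSO, leaving out 1 library gave 0 to 3382 calls for picoxystrobin, 0 to 907 for pyraclostrobin and 0 to 182 for trifloxystrobin. DESeq2 gave pyraclostrobin 278, the correction for GC content and length gave picoxystrobin 6 and pyraclostrobin 14, and the spread over 15 libraries gave both 0. Concentration as a term gave picoxystrobin 1076 and pyraclostrobin 0. Between compounds DESeq2 gave 106, 94 and 44 calls for pyraclostrobin against picoxystrobin, trifloxystrobin against picoxystrobin and trifloxystrobin against pyraclostrobin, and leaving out 1 library gave 0 to 504, 0 to 487 and 0 to 253. The difference of 100 from 30 nM stayed at 0 calls in the alternatives run.

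Of 1693 values of named genes under alternatives, 9 changed sign, all of genes not called. Under the composition correction Col1a2 came to 0.0861, Thra to 0.0604 and mt-Cytb to -0.0671 on the log2 scale. With 1 library left out Klf9 ranged from -0.131 to 0.0423, Aldh1l2 from -0.557 to 0.231, Trib3 from -0.647 to 0.13 and Chac1 from -0.533 to 0.0719, each highest without DMSO replicate 2. Without trifloxystrobin at 100 nM Klf9 came to 0.000867 and Chac1 to 0.00172. The causes were not tested. With 2 DMSO libraries, of which 1 is in doubt, and no repeated library for any compound at a concentration, most differences under 0.22 on the log2 scale were not detectable here.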
